A study of Homo sapiens with 4 samples.

Results

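The segment of chromosome 8 that holds TRIB1, MYC and PVT1 was examined in 4 lists of open chromatin peaks from HL-60 cells. The segment was chosen by position and runs from 50 kb before TRIB1 to 2 Mb after the end of MYC, which is chr8:126392600-130755197 in hg19, a length of 4.36 Mb. It held 173 of the 78046 merged regions of the series, where a merged region is the union of the peaks of all lists that overlap. TRIB1 lies at chr8:126442600-126450645, MYC at chr8:128747680-128755197 and PVT1 at chr8:128806772-129199347, all on the plus strand. The segment holds 4 protein-coding genes, or 0.917 per Mb against 7.05 per Mb over the genome, and 27 genes of long noncoding RNA.

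Open chromatin was measured by ATAC-seq, in which a transposase cuts accessible DNA and leaves sequencing adapters there. HL-60 (ATCC CCL-240) is a human promyelocytic leukemia line whose cells take on features of granulocytes under all-trans retinoic acid (ATRA), a vitamin A derivative that binds retinoic acid receptors. The ATRA-treated cells had 1 µM ATRA for 4 days and the control cells had ethanol, the solvent, for 4 days, with 2 replicates in each group. Medium and agent were renewed at day 2 in both groups. Each replicate is 1 peak list from bulk cells, so a larger share of open cells and more open chromatin per cell cannot be told apart. The study's text describes the replicates as independent biological ones.

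MYC encodes a transcription factor that binds DNA as a dimer with MAX and drives growth and division in myeloid precursors. PVT1 is a long noncoding RNA gene next to MYC whose promoter and introns are known to influence MYC. TRIB1 encodes a pseudokinase that brings the ubiquitin ligase COP1 to C/EBPα, a factor needed for granulocyte differentiation. The noncoding stretches on both sides of MYC carry enhancers that act on it over long distances, and the far downstream cluster around CCDC26 is known for its activity in blood cells. HL-60 is known to carry extra copies of this region. Copy number was not measured here.

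The lists held 43494 and 63541 peaks in ATRA-treated cells and 42081 and 45903 in control cells, of which 108, 146, 94 and 103 lay in the segment. The lists give a score per peak from 50 up to a ceiling of 3100, no read counts, and no scale for the score, so depth is unknown and a missing peak says only that no peak passed the caller's threshold there. Scores were therefore turned into percentiles within each list. Of 8 promoters of promyelocyte genes, 4 had a peak in all 4 lists (CTSG, CD33, SPI1 and CEBPE), while those of ELANE and AZU1 had none. A promoter peak in all 4 lists was found for 1 of 4 erythroid genes (EPOR) and 0 of 3 epithelial genes. The epithelial gene KRT8 had one in 3 lists, at percentiles 82.6 and 80.8 in ATRA-treated cells and 52.8 in control replicate 2.

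The promoter of MYC carried 1 of the widest peaks of every list. The peak was 4375 bp in ATRA replicate 1 and 6286 bp in ATRA replicate 2, and 6555 and 6219 bp in the control replicates. By width it ranked 9 of 43494, 2 of 63541, 2 of 42081 and 2 of 45903. In ATRA replicate 1 a separate peak of 1094 bp at percentile 71.4 lay just before it, within the same merged region. The merged region, chr8:128745691-128752245, is 6555 bp long and covers the start of MYC and that of CASC11, a long noncoding RNA gene on the other strand, so its signal cannot be given to either gene alone.

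The score of the MYC promoter peak stood at the percentiles 84.7 and 90.4 in ATRA-treated cells and 90.9 and 96.0 in control cells. Both ATRA values lay below both control values, though the nearest pair was close. The mean was 87.5 ± 4.10 (SD, n = 2) in ATRA-treated and 93.4 ± 3.57 (SD, n = 2) in control cells. The difference was -5.88 percentile points (exact permutation test, two-sided p = 0.333). With 2 samples against 2 this test cannot go below 0.333, so no difference between the groups could pass a threshold of 0.05 by this test. Leaving out 1 library moved the difference, to -2.99 without ATRA replicate 1, -3.36 without control replicate 2 and -8.78 without ATRA replicate 2.

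TRIB1 had a promoter peak in control cells and in neither list of ATRA-treated cells. In control replicate 1 the peak was 7382 bp wide, the widest of the 42081 peaks of that list. In control replicate 2 the best-scored peak at the promoter was 3144 bp wide and ranked 12 by width, and another peak followed it within the gene. The best-scored promoter peaks were middling in score, at percentiles 57.9 and 52.9. The other peak of control replicate 2 was wider, at 4619 bp, but low in score, at percentile 13.7. Together these peaks made up chr8:126440173-126448510, a region of 8338 bp from the promoter into the gene body. In this region no ATRA-treated list had a peak of any size.

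PVT1 had no convincing peak at its first start site. In ATRA replicate 1 a 184 bp peak at percentile 10.9 lay there. A separate region just downstream, chr8:128806951-128808056, was present in ATRA replicate 2 at percentile 26.7 and in control replicate 2 at percentile 66.4. Control replicate 1 had neither. The first start of PVT1 therefore showed no peak common to both replicates of a group.

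The strongest promoter peak of PVT1 was internal. At chr8:129060525-129061877, an internal start that also lies at the microRNA gene MIR1207, peaks were found in all 4 lists, at percentiles 40.6 and 75.1 in ATRA-treated cells and 87.4 and 79.3 in control cells. Both ATRA values were below both control values, by 25.5 points on average, with ATRA replicate 1 far below the other. Taking for each list the best-scored peak at any annotated PVT1 start gave 58.2 and 75.1 against 87.4 and 79.3, a difference of -16.7 (exact permutation test, p = 0.333). The value of ATRA replicate 1 then came from another start, at chr8:128902155-128902565. That start did not stand lower after ATRA, at 58.2 and 72.9 in ATRA-treated cells and 58.7 in control replicate 1, with no peak in control replicate 2. Leaving out ATRA replicate 1 brought the difference of -16.7 to -8.26, and leaving out the other ATRA library to -25.1. A further region inside an intron of PVT1, chr8:128929610-128930230, stood at 43.0 and 69.5 against 70.9 and 85.6.

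**Figure D1:**
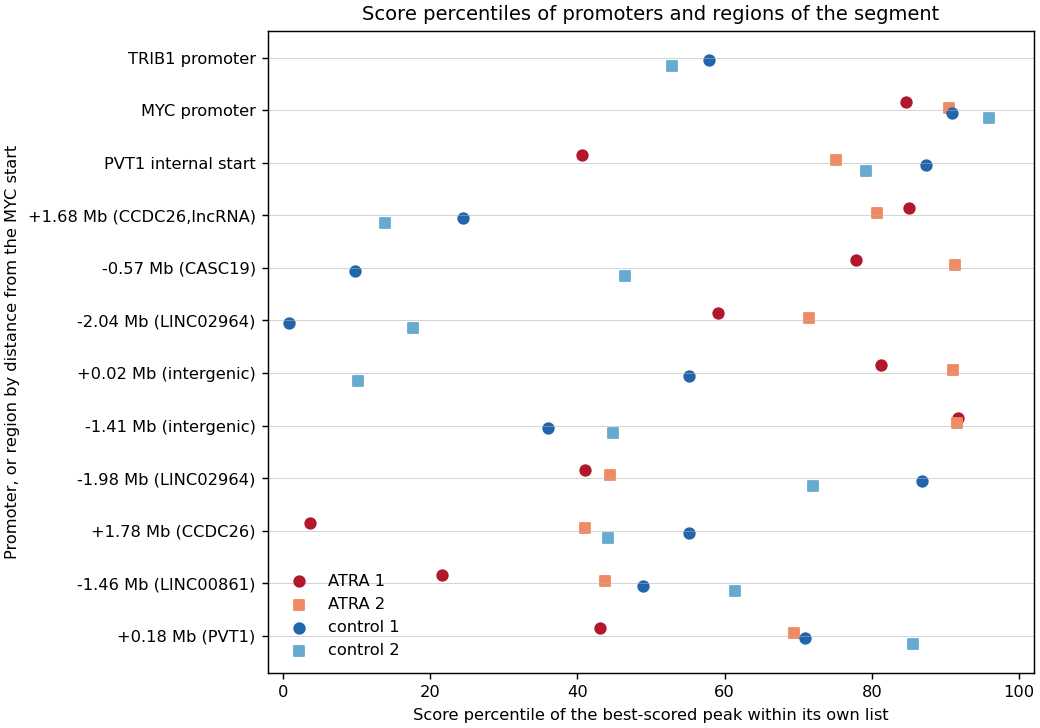
Score percentiles (x axis, within each list) of the TRIB1, MYC and internal PVT1 promoter regions and of the regions in all 4 lists with the largest group differences (y axis, named by distance from the MYC start in Mb and by gene), with 1 point per library. The MYC and PVT1 points of control cells lie to the right of those of ATRA-treated cells, and TRIB1 has points for control cells only.

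Across its 393 kb, the body of PVT1 held more peaks in both ATRA lists than in either control list. It had 12 and 20 peaks in ATRA-treated cells and 7 and 9 in control cells, in 23 merged regions, with ATRA replicate 2 the longest list overall. Of these regions 5 had a peak in both ATRA lists and in no control list, 1 showed the opposite, and 3 had a peak in all 4 lists. Over all merged regions of the genome these patterns made up 8.93%, 3.37% and 30.3%. Among the 5, chr8:129054274-129054865 had the highest mean percentile, at 78.4 and 54.4 in the ATRA replicates. In the opposite case, chr8:128823141-128823466, the control percentiles were low, at 17.6 and 18.4.

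The surroundings of both genes were also measured as 1 stretch, from 50 kb before MYC to 50 kb after PVT1. Here 19 and 28 peaks were found in ATRA-treated cells and 11 and 14 in control cells. Divided by the peaks per Mb of the whole genome in the same list, the density was 2.26 and 2.28 against 1.35 and 1.58. The ATRA values did not overlap the control values and differed by 0.81 (exact permutation test, p = 0.333). Keeping an equal number of the best-scored peaks in each list left the difference at 0.80, and leaving out each list in turn gave 0.69 to 0.92.

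Between MYC and PVT1, neighbouring regions differed in opposite directions. At chr8:128771232-128772502, centred 24.2 kb after the MYC start, the percentiles were 81.3 and 91.0 in ATRA-treated cells and 55.2 and 10.1 in control cells. That is 53.5 points higher on average, and the peaks were also wider, at 1040 and 1258 bp against 575 and 526 bp. At chr8:128763047-128764151, nearer to MYC, control cells had peaks at percentiles 52.7 and 58.1, whereas ATRA replicate 1 had none and ATRA replicate 2 had 1 near the bottom of its list, at 0.0472. Upstream of MYC, 2 regions at chr8:128697293-128698052 and chr8:128724382-128724964 had peaks in both ATRA lists and in no control list.

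Around TRIB1, in the gap and in the distal window the groups overlapped. Relative peak density was 2.36 and 2.18 against 2.31 and 2.79 around TRIB1, from the start of the segment to 500 kb after the gene. It was 1.13 and 0.95 against 1.13 and 1.00 in the gap up to MYC. In the distal window, which covers 1.5 to 2 Mb after the end of MYC and lies largely in CCDC26, it was 3.02 and 2.52 against 2.72 and 2.74, the highest level of the 5 stretches in ATRA replicates 1 and 2 and in control replicate 1. In the downstream stretch between PVT1 and the distal window the values were 1.05 and 1.16 against 1.01 and 0.87, which did not overlap and differed by 0.16 (exact permutation test, p = 0.333).

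**Figure D2:**
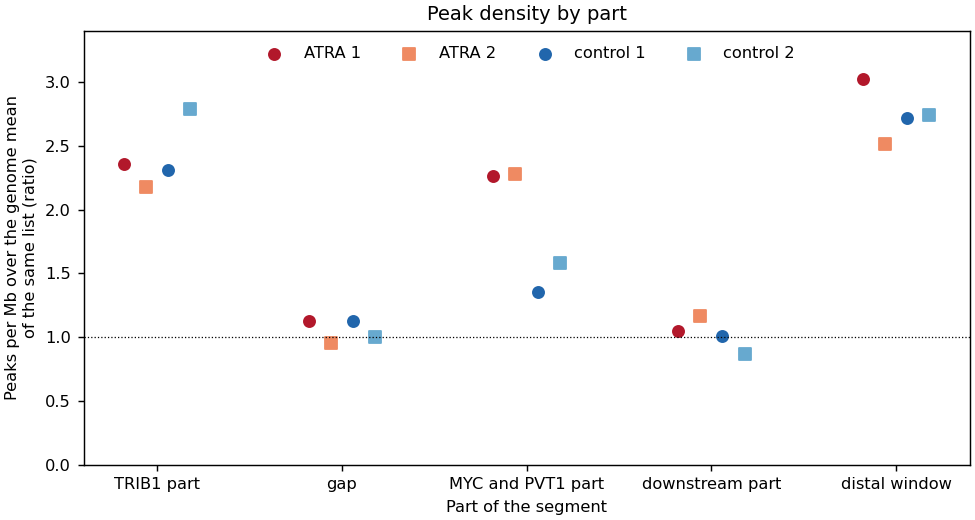
Peaks per Mb divided by the genome mean of the same list (y axis, ratio; dotted line at 1) in 5 stretches of the segment (x axis), with 1 point per library. The ATRA points lie at 2.26 and 2.28 and the control points at 1.35 and 1.58 in the stretch with MYC and PVT1, while the groups overlap around TRIB1, in the gap and in the distal window.

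Over the whole segment, peak density was 1.63 and 1.51 times the genome mean in ATRA-treated cells and 1.46 and 1.47 times in control cells. The difference was 0.10 (exact permutation test, p = 0.333). Leaving out ATRA replicate 1 made it 0.04, leaving out ATRA replicate 2 made it 0.16, and it was 0.22 with the rest of chromosome 8 in place of the genome. The flanking 4.36 Mb on either side were as dense, at 1.29 to 1.54 times the genome mean before the segment and 1.57 to 1.91 after it. The median score percentile of the segment's peaks was 57.6 and 58.0 against 52.3 and 54.8, a difference of 4.24 (exact permutation test, p = 0.333), with no overlap between the groups. With an equal number of peaks in each list the groups overlapped and the difference was 2.69 (p = 0.667 by the same exact test), with means in place of medians it was 1.22 (exact p = 0.667), and with peaks below each list's median score left out the difference turned to -4.58.

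The peaks of the segment were wide. Their median width was 604.5 and 691.5 bp in ATRA-treated cells and 698 and 569 bp in control cells, against list medians of 328, 416, 325 and 291 bp. Relative to the list median the segment's peaks were 1.84 and 1.66 times as wide in ATRA-treated cells and 2.15 and 1.96 times in control cells (difference -0.30, exact permutation test, p = 0.333). Peaks of the segment made up 0.248%, 0.230%, 0.223% and 0.224% of the peaks of the 4 lists but 0.451%, 0.420%, 0.533% and 0.568% of the bases they covered.

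The widths also stood high among peaks of similar score. Each peak was ranked by width among the peaks of its own list with a similar score, in 20 bins of score, to give a score-matched width percentile. The median over the segment was 95.1 and 86.6 in ATRA-treated and 96.5 and 96.2 in control cells, a difference of -5.49 (exact permutation test, p = 0.333), which fell to -1.22 without ATRA replicate 2 and grew to -9.76 without ATRA replicate 1. In the flanking 4.36 Mb on either side the medians were 48.5 to 63.4. Peaks at or above the 90th matched percentile were 244 of 451 in the segment, or 54.1%, against 10.0% of all peaks of the 4 lists.

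Wide peaks came in blocks. Where the running median over 5 neighbouring regions of their mean matched width percentile was at least 80, a rule set after the values were seen, 6 blocks were marked. Their centres ran from -2.52 to -2.15 Mb, from -2.11 to -1.40 Mb, from -0.69 to -0.43 Mb, from -0.05 to 0.06 Mb (MYC itself), from 0.28 to 0.32 Mb and from 1.25 to 1.95 Mb relative to the MYC start. The first began before the segment, and the others held introns of LINC02964, the CASC19 locus, the MYC promoter, part of PVT1 and CCDC26.

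The blocks took up 46.3% of the segment and held 68.5% and 64.4% of its peaks in ATRA-treated cells and 70.2% and 70.9% in control cells. Inside them the median peak was 819.5, 994, 919.5 and 780 bp wide in the 4 lists, and outside them 284.5, 432.5, 297 and 278 bp, close to the list medians. The matched medians of the lists were 96.8 to 98.6 inside and 45.2 to 56.6 outside, which describes the blocks only, since the same values of all 4 lists had been used to draw them. Peak density was 2.09 to 2.41 times the genome mean inside and 0.80 to 1.00 outside. Since each block starts and ends at a region, the peak-free stretches between blocks count as outside, which raises the density inside. Of the 110 regions in blocks, 44 had a peak in all 4 lists, against 12 of the 63 outside. The share over the genome was 30.3%. Blocks were drawn by width, and wide peaks meet the overlap rule more easily, so these values also describe the blocks only.

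**Figure D3:**
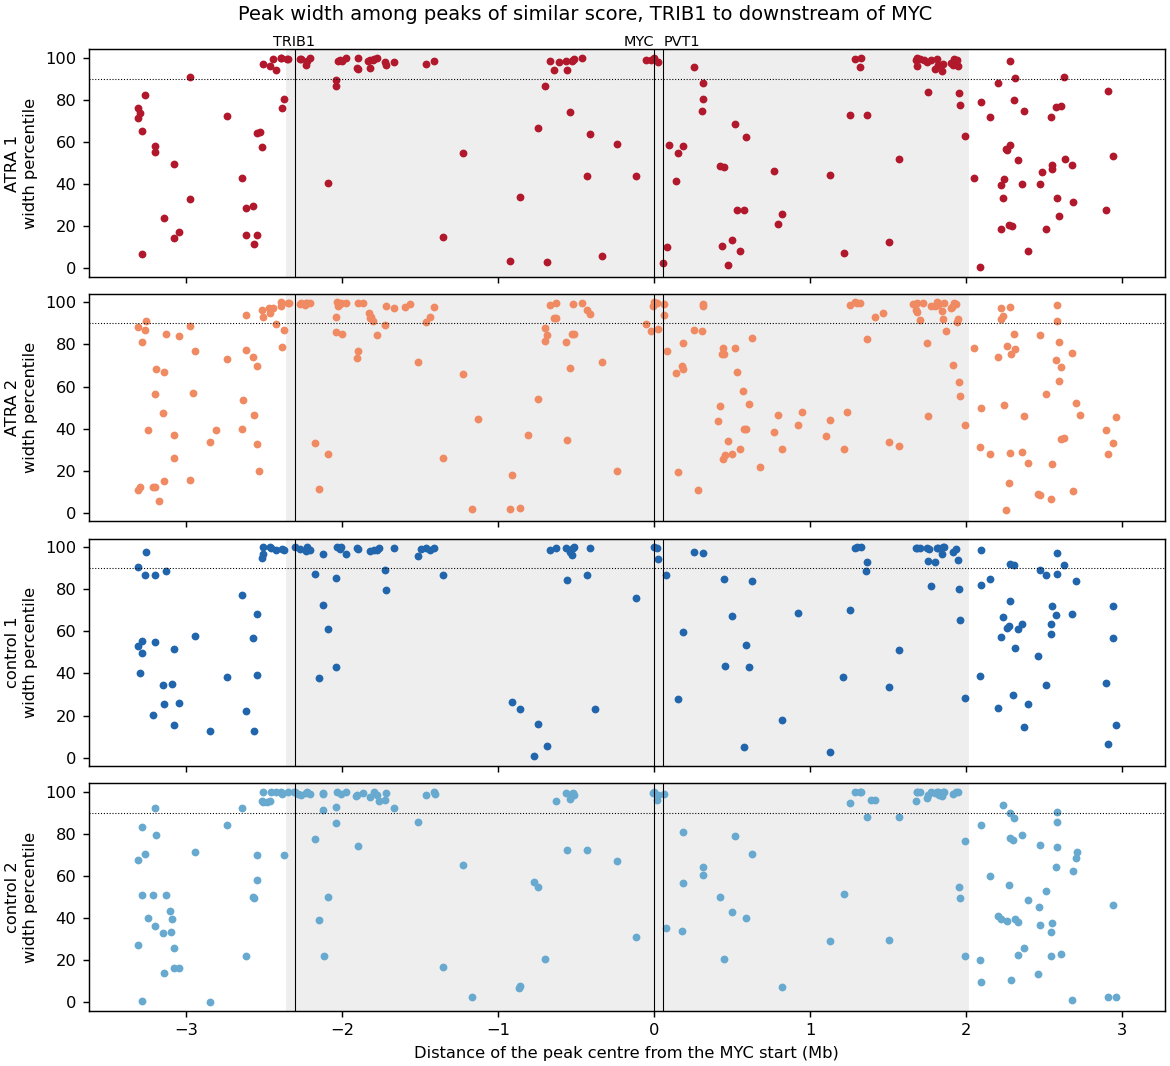
Score-matched width percentile of each peak (y axis; dotted line at the 90th) by distance of its centre from the MYC start in Mb (x axis), with 1 panel per library and the segment shaded. In all 4 libraries, peaks near the top fill blocks around TRIB1, upstream of MYC, at MYC and from 1.25 to 1.95 Mb downstream. Widths are mostly ordinary between the blocks, before -2.52 Mb and after 1.95 Mb, and the first block begins before the shaded segment.

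To place these widths among the rest of the genome, it was divided into windows of 1 Mb, and 1903 windows had at least 8 peaks in every list. By the lowest of the 4 median matched width percentiles, the windows of chromosome 8 that start at 130, 126 and 128 Mb ranked 2, 3 and 4, with lowest medians of 93.4, 93.1 and 86.5. The window at 127 Mb ranked 17 and that at 129 Mb, between the PVT1 and CCDC26 blocks, ranked 607. The window with the highest value started at 49 Mb of chromosome 4 and the next after these at 42 Mb of chromosome 10. The part of copy number in these widths was not tested.

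The region of the segment with the highest mean percentile lay in the block farthest downstream. In CCDC26 this intronic region, chr8:130593372-130595547, stood at percentiles 99.0 and 99.8 in ATRA-treated cells and 94.1 and 98.1 in control cells, a little higher after ATRA. Nearby regions went the other way. At chr8:130677157-130680111 the percentiles were 90.9 and 97.6 against 99.4 and 99.4, and at chr8:130557636-130562765, a CCDC26 start with peaks of 2672 to 4639 bp, they were 97.1 and 87.8 against 98.2 and 98.7.

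In the distal window the largest contrast among regions present in all lists lay at chr8:130430242-130431464, with percentiles of 85.1 and 80.7 in ATRA-treated cells and 24.5 and 13.9 in control cells, a difference of 63.7 points. At chr8:130501382-130502019 the values were 76.5 and 75.6 against 38.7 and 34.8. By contrast, at chr8:130565882-130568562 control cells had strong peaks at 90.2 and 94.6, ATRA replicate 2 had 1 at 72.3 and ATRA replicate 1 had none. Directly before it, at chr8:130563760-130565521, the ATRA replicates had peaks at 91.9 and 44.2 and the control lists had none. Adjacent calls thus differed in position between the groups, which is not a loss of the whole stretch.

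Upstream of MYC, the region with the highest mean percentile of the gap lay at CASC19, a long noncoding RNA gene. At this region, chr8:128217968-128219947, the percentiles were 92.2 and 97.5 against 96.9 and 98.1, with overlap. At 2 further CASC19 regions the groups did not overlap. At chr8:128180645-128181862 the percentiles were 77.9 and 91.4 against 9.81 and 46.5, and at chr8:128208722-128209972 94.1 and 97.8 against 79.2 and 89.1. An intergenic region at chr8:127333888-127335788 stood at 91.8 and 91.5 against 36.0 and 44.9, and its peaks measured 1453 and 1854 bp against 720 and 789 bp. Farther upstream, in LINC02964, chr8:126770600-126772020 showed the reverse, with 41.1 and 44.4 against 86.9 and 72.0.

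Of the 56 regions of the segment with a peak in all 4 lists, 20 had both ATRA percentiles above both control percentiles and 13 had both below. That is 35.7% against a background of 29.2% of such regions over the genome for higher, and 23.2% against 12.8% for lower. The median difference over the 56 regions was 0.86 percentile points, against 2.83 over the genome. With an equal number of peaks in each list, the best-scored as many as the shortest list holds, the split in the segment became 14 higher and 17 lower of 55, against genome shares of 22.6% and 20.9% under that setting, and all 13 regions first counted as lower stayed lower. Single libraries moved these counts. Lower regions numbered 27 of 59 without ATRA replicate 2, 21 of 65 without ATRA replicate 1 and 22 of 65 without control replicate 1. The genome backgrounds were then 36.8%, 19.1% and 27.4%. Without control replicate 2, lower regions were 14 of 64, near the background of 22.0%. Higher regions numbered 32 of 65 without ATRA replicate 1 and 35 of 64 without control replicate 2, against 52.9% and 47.1%.

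Peaks found in both replicates of a group, called convincing peaks, numbered 99 in ATRA-treated cells and 75 in control cells. ATRA-specific peaks, with no overlap with a convincing peak of control cells, were 43 of the 99, or 43.4% against a background of 37.3%. Control-specific peaks were 18 of the 75, or 24.0% against 23.7%, a share near the background. By stretch, from TRIB1 through the gap, the MYC and PVT1 stretch and the downstream stretch to the distal window, ATRA-specific peaks numbered 9, 11, 10, 8 and 5 and control-specific peaks 6, 6, 2, 2 and 2. With an equal number of peaks the ATRA-specific count was 31 of 86 and the background 32.2%. Without ATRA replicate 1, where all peaks of the other ATRA list counted as convincing, the counts were 80 of 146 ATRA-specific, near the background of 55.4%, and 9 control-specific. Control-specific peaks numbered 37 without control replicate 1 and 29 without control replicate 2, at backgrounds of 36.3% and 32.7%.

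A stricter reading asked for no peak of any kind in the other group. Of the 173 merged regions, 26 had a peak in both ATRA lists and in no control list, or 15.0% against 8.93% of all merged regions. In the opposite direction there were 6, or 3.47% against 3.37%. Of the 26, 19 lay in introns and 3 in exons of noncoding genes and 4 between genes, and none at an annotated promoter. Among all 173 regions, 22 or 12.7% lay at a promoter, so few promoters could be looked for among 26. The best-scored of the 26 was chr8:126744187-126745558 in LINC02964, at percentiles 87.7 and 94.9 and with widths of 1289 and 1213 bp. Next came chr8:129540492-129540995 in LINC00824, at 78.0 and 72.5, which lay outside the wide blocks and had widths of 363 and 504 bp.

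The 6 regions seen only in control lists included the TRIB1 promoter. Both of the next closest, chr8:126623862-126625287 at percentiles 78.9 and 67.3 and chr8:126627602-126628106 at 72.2 and 48.3, lay between genes in the TRIB1 stretch. The promoter of LINC00861 at chr8:126984024-126984697 had control peaks at 14.1 and 32.5. The remaining pair lay in introns of PCAT1 and PVT1 and were narrow and low in score.

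Of 61 annotated genes in the segment, 17 had a promoter peak in at least 1 list. Protein-coding genes besides MYC and TRIB1 were represented by POU5F1B, a retrogene copy of POU5F1, whose promoter peak stood at 91.8 and 75.3 in ATRA-treated cells and at 23.5 in control replicate 1, with none in control replicate 2. The same peak lay at a start of PCAT1. LINC02964 had its promoter peak at 89.5 and 45.3 in control cells, at 2.03 in ATRA replicate 1 and none in ATRA replicate 2. The lncRNA gene ENSG00000286034 stood at 59.4 and 65.1 against 18.4 and 33.8, and MIR3686 at 32.0 and 72.5 against 9.28 and 48.3, where the groups overlapped. CASC19, PCAT1, CCDC26 and ENSG00000253926 had promoter peaks in all 4 lists, ENSG00000253111 in 3, and LINC00824 and MTRF1LP2 in 1 list each.

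Of the 173 regions, 111 lay in introns, 25 between genes, 22 at promoters and 15 in exons. Short motifs were sought in the 200 bp around each region's centre on both strands. The GATA letters AGATAA or TGATAA were in 24.9% of the segment's regions and 18.8% of all merged regions, and in 16 of the 56 regions common to all 4 lists (28.6%, against 14.5% of such regions over the genome). The C/EBP letters TTGCNNAA were in 8 of the 26 regions found in ATRA lists alone, or 30.8% against 15.3%, and in 3 of the 56 common regions, or 5.36% against 10.3%. The PU.1 letters GAGGAAGT were in 5 of the 26, or 19.2% against 13.3%. In the same 26 regions the RUNX letters AACCACA had no match, against 11.96% over the genome, and the GATA letters were in 3, or 11.5% against 14.4%. Among the 6 regions found in control lists alone the GATA letters were in 3, or 50.0% against 43.7%. The CTCF core letters AGGGGGC were rare, in 2 of the 173 regions (1.16% against 7.07%). The E-box letters CACGTG were also in 2, or 1.16% against 3.73%. A match of letters is a description and not a binding site, and counts this small can shift with a few regions.

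MYC acts within a network of partner and rival proteins, and their promoters lie on other chromosomes. Of 12 network genes, 8 had a promoter peak in all 4 lists and 7 of these ranked higher in both ATRA lists than in both control lists, with none lower. Over the genome, 38.5% of 8903 protein-coding promoters with a peak in all 4 lists ranked higher and 6.98% lower. The median difference of the 8 was 11.2 percentile points, against 3.37 for all 8903 promoters. It was 6.22 against 1.53 with an equal number of peaks in each list. Without control replicate 2 the set grew to 10 network genes, with a median of 6.20 against 1.59 for 9748 promoters. MXD3 differed by -16.7 in that setting. With an equal number of peaks in each list 5 ranked higher, namely MAX, MXD1, MXD4, MXI1 and MGA, against a background of 27.0%, while MNT overlapped and MYCL turned to a difference of -2.62.

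MAX, the shared partner of the network, had promoter percentiles of 91.2 and 94.0 in ATRA-treated cells and 74.4 and 82.5 in control cells. MXI1 and MXD1 encode proteins that pair with MAX and oppose MYC. MXI1 stood at 87.1 and 94.2 against 84.5 and 72.8, while MXD1 was near the top in every list, at 99.8 and 99.9 against 99.4 and 99.2. MGA, a large MAX partner, stood at 91.3 and 90.5 against 84.6 and 71.8, and MXD4 at 99.4 and 99.2 against 97.9 and 98.3. MNT, another MAX partner, stood at 70.0 and 67.7 against 64.7 and 19.5, and MYCL, a MYC relative, at 37.2 and 39.5 against 32.1 and 23.9. MXD3 overlapped between the groups, MYCN had no promoter peak in any list, and MLX, MLXIP and MLXIPL lacked one in at least 1 list.

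Of 6 genes related to TRIB1 or to its partners, 4 had a promoter peak in all 4 lists, of which none ranked higher and 1 lower, against 38.5% and 6.98% of the 8903 promoters. TRIB3, a relative of TRIB1, stood at 6.04 and 42.3 in ATRA-treated cells and 50.9 and 55.6 in control cells. COP1 and DET1, which belong to ubiquitin ligase complexes, and TRIB2 overlapped between the groups. The promoter of CEBPA, which encodes C/EBPα, stood at 52.6 and 60.3 in ATRA-treated cells and at 20.6 in control replicate 1, with none in control replicate 2. CEBPB, which encodes a related factor, had promoter peaks at 57.2 and 51.9 in ATRA-treated cells and none in control cells.

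**Figure D4:**
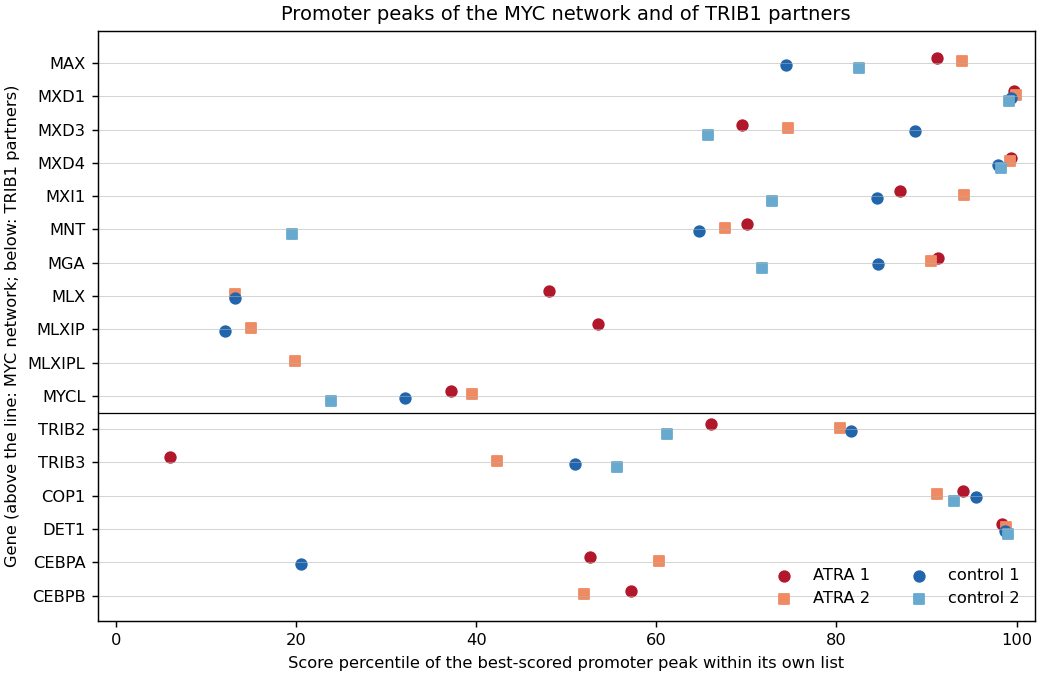
Score percentile of the best-scored promoter peak within its own list (x axis) for genes of the MYC network and genes related to TRIB1 or its partners (y axis), with 1 point per library in which a peak was found. The ATRA points of MAX, MXI1 and MGA lie to the right of the control points, and those of TRIB3 to the left.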

How the data were processed

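ATAC-seq peaks of 4 HL-60 libraries were used, 2 from ATRA-treated and 2 from control cells. The authors aligned trimmed reads to hg19 and called peaks per library (the submitters' notes name cutadapt, Bowtie2, MACS2 and MACS, without versions given here), and deposited for each peak a position and a score whose scale is not stated. No read counts were given, so no counting error or depth could be computed. The segment was set from GENCODE 44 coordinates lifted to GRCh37, and a peak belonged to it by its centre. Scores were ranked to percentiles within each list, and width within 20 score bins. Promoters ran from 1 kb before to 100 bp after any annotated start, and a gene took its best-scored promoter peak. Overlap was at least 1 bp. Groups were compared by exact permutation of the 4 libraries (numpy 2.4.6, pandas 2.3.3, Python 3.11.15). The scripts were tested on simulated lists. Named genes were TRIB1, MYC, PVT1, segment genes with a promoter peak, group-specific regions, the 5 best-scored regions common to all lists in each stretch (both kinds summarised), and genes of the network lists whose groups did not overlap. The members, lists and tests were chosen with earlier results of these data known. Regions singled out for large differences were chosen after their values were seen. Alternatives were an equal number of peaks, peaks at or above the median score, peaks of 200 bp, other overlap and promoter rules, other denominators, a replicate block and leaving out each library. No sequence of the segment is printed. Some marker genes are not reported here.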

Additional observations from a re-analysis of the deposited data

How the results depend on the processing

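Of the group differences over the segment, its peaks around MYC and PVT1 and the MYC and PVT1 promoters, 2 changed sign under an alternative that was run. The median score percentile difference turned from 4.24 to -4.58 with peaks at or above the median score, and the difference in the share of segment peaks in the distal window, -1.08 percentage points, turned to 0.89 with an equal number of peaks. Among the network promoters, MYCL turned to -2.62 and TRIB2 to -1.91 with an equal number of peaks, MXD3 to 6.28 without control replicate 1, and TRIB2 to -5.26 without ATRA replicate 2 and -8.32 without control replicate 2. No alternatives were run for the density of the other 4 stretches. No TRIB1 percentile difference exists, since no ATRA list had a TRIB1 promoter peak under any alternative run. The excess of control over ATRA lists with that peak was 2, and 1 to 2 when a library was left out. Counts moved more. ATRA-specific and control-specific peaks, 43 and 18, were 23 of 54 and 10 of 42 with peaks at or above the median score. Those shares were 42.6% against 39.1% over the genome, and 23.8% against 25.8%. The counts were 26 and 6 of the same 99 and 75 under the rule that the opposite group lacks any peak. No genome share of convincing peaks was taken under that rule. Regions ranked higher and lower, 20 and 13, were 7 and 8 of 31 with peaks at or above the median score. The genome shares were then 29.6% and 12.3%. They numbered 11 and 5 where the peaks of each list had to cover at least 0.5 of the merged region. The lower count was 7 with peaks of 200 bp. No genome share was taken under either of these rules. Leaving out 1 library gave 34 to 80 ATRA-specific, 9 to 37 control-specific, 23 to 35 higher and 14 to 27 lower. Genome shares in the same settings ranged from 27.1% to 55.4%, 9.97% to 36.3%, 34.3% to 52.9% and 19.1% to 36.8%. A lone list then stood for its group, so all its peaks counted as convincing. With the replicate number as a replicate block, paired differences had the same means (-5.88 points for MYC, 0.10 for density) and a smallest p of 0.5. Deviations of same-numbered libraries correlated at 0.211 over 23654 regions, which with 2 pairs does not show pairing.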
